A study of Mus musculus with 120 samples.

Results

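The gene set described here holds 10 genes for amino acid supply, 6 transporters (Slc3a2, Slc7a5, Slc7a11, Slc7a2, Slc38a2 and Slc1a5) and 4 synthesis enzymes (Asns, Psat1, Phgdh and Shmt2). They were taken by symbol from a table of 23481 genes, and all 10 had a row. The libraries are 3′ digital gene expression profiles of bone-marrow-derived macrophages from male C57BL/6 mice, 12 weeks old, grown from wild-type marrow. Every culture, controls included, carried a reporter virus for transcription factor activity and was replated in 96-well format. Halofuginone was given at 2.4, 9.7, 39, 156, 625, 2500 or 10000 nM, either with 2 mM proline or without it, and controls had no halofuginone label and no proline label. Each dose and arm had 2 libraries and the controls 12 at each of the time labels 0, 1 and 4 (T0, T1 and T4), which makes 120 libraries in 45 groups. The time labels have no unit, and no label says which libraries received LPS, the bacterial lipopolysaccharide that the series design adds after a 30 minute pretreatment. T1 and T4 are therefore read as times after LPS from the design text alone. Nothing in the labels says that libraries of a group came from separate cultures, so p-values measure only the spread between these libraries, which may be technical.

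Halofuginone inhibits the charging of transfer RNA with proline by binding EPRS, the glutamyl-prolyl-tRNA synthetase, and free proline competes for the same pocket. Uncharged transfer RNA activates the kinase GCN2, which slows translation in general and favours translation of the transcription factor ATF4. In mammals ATF4 induces genes that import amino acids or make non-essential ones, and several members of this set, though not all, are used as readouts of that response. The comparison of arms addresses whether levels under halofuginone differ with proline. No library is labelled as proline without halofuginone, so an effect of proline itself cannot be told apart from a change in the response to halofuginone.

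Libraries held 20000 to 114061 counts with a median of 49515, and 8 had under 30000. The ribosomal precursor Rn45s took 27.0 to 71.1% of the counts of a library, so the rest of the genes shared 5798 to 69316 counts. Members were sparse at this depth. Over all 120 libraries Slc3a2 had 715 counts, Slc38a2 588, Slc7a2 483, Psat1 176, Asns 160, Slc7a11 73, Slc1a5 59, Shmt2 29, Phgdh 26 and Slc7a5 14. Levels are therefore given as CPM, the counts scaled to a common library size, per library for the more abundant members and from summed counts of a group for all of them. Intervals on summed counts are 95% Poisson intervals, and the floor of a group is the level of 3 counts in it. Both cover counting error only. Low doses are 2.4 and 9.7 nM, middle doses 39 and 156 nM, and high doses 625 nM and above. A filter on low counts left 1451 genes for testing, with Slc3a2, Slc38a2 and Slc7a2 among them. A second fit with a lower minimum count tested 7935 genes and 8 members, all but Slc7a5 and Phgdh. Because counts of 3′ tags are not divided by transcript length, a CPM here is compared between groups and not between genes.

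Promoter windows from RefSeq (GRCm38.p6, 250 bases before to 50 after each gene start) were available for 7 of the 10 members. They were searched for TGATGNAA on both strands, a form of the composite element bound by ATF4 with C/EBP proteins. A match was present in 3.97% of all 32851 windows, and in those of Asns and Slc7a11. The 100 bases before the start of these genes are shown, each on the strand of its gene, because these are the members whose windows hold the letters. Capitals mark the matches. Gene starts are those of RefSeq. GENCODE places the start of Asns 45 bases, that of Slc3a2 9472 bases and that of Psat1 at least 22278 bases farther upstream, so for Slc3a2 and Psat1 the sequence before the GENCODE start was not searched. The Asns match starts 23 bases before the RefSeq start, so it lies after the GENCODE start, inside the gene as GENCODE places it. The Slc7a11 matches start 66 and 47 bases before the start of that gene, the nearer one on the other strand. The Asns stretch is chr6:7693210-7693309 on the minus strand and the Slc7a11 stretch is chr3:50443614-50443713 on the minus strand.
Asns: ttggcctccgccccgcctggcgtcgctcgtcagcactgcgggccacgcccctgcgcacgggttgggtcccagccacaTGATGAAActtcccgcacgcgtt
Slc7a11: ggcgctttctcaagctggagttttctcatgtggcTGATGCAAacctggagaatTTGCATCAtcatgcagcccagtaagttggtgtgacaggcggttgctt
A match describes the letters of the window and does not show binding.

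Slc38a2 (chr15:96687392-96699730, minus strand) encodes the system A transporter SNAT2, which brings small neutral amino acids, proline among them, into the cell with sodium. It rose at the low doses without proline, and at the same doses its level summed over the 3 times was lower with proline. Over the 3 times the low doses had 64 counts with proline, 75.9 CPM (58.4 to 96.9), 135 counts without, 186 CPM (156 to 220), and the controls 107 counts, 40.4 CPM (33.1 to 48.8). From 2.4 to 10000 nM the summed level with proline was 53.6, 101, 187, 164, 134, 62.0 and 94.5 CPM. Without proline it was 152, 239, 166, 99.2, 52.4, 83.3 and 119 CPM. These sums pool times whose levels differ, and 1 library moved 3 of them by over 1.5 times. With proline the level at 2500 nM was 37.9 CPM without replicate 2 at T0, and without proline that at 625 nM was 18.6 CPM without replicate 2 at T1 and that at 156 nM 63.2 CPM without replicate 2 at T0. The ratio of the arms, with proline over without, was 0.352 (0.211 to 0.568) at 2.4 nM and 0.423 (0.278 to 0.634) at 9.7 nM. It was 1.13 (0.761 to 1.69) at 39 nM and 1.66 (0.955 to 2.96) at 156 nM, intervals that include 1, and the 156 nM ratio was 2.60 without replicate 2 of 156 nM without proline at T0. In these bulk libraries fewer cells of a type and less RNA per cell cannot be told apart.

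With proline, the low doses gave 30.4, 97.3, 34.0 and 145 CPM of Slc38a2 at T0 (replicates 1 and 2 of 2.4 nM, then of 9.7 nM, an order kept below), 94.4, 119, 247 and 81.2 CPM at T1, and 10.9, 0, 0 and 118 CPM at T4. These values overlap the controls at each time. In the single-time tests of this arm no gene of 1451 was called (0%), and 67, 48 and 64 genes had an unadjusted p under 0.05 at T0, T1 and T4. The log2 fold change over the 3 times was 1.05 (SE 0.38, p = 0.00656, adjusted p = 0.381), where 0.207% of all genes and none of the 3 members passed edgeR's test at an adjusted p under 0.05. By DESeq2 none passed either, and at an unadjusted p under 0.05 only Slc38a2 did.

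At T0 the low-dose libraries without proline had 204, 151, 166 and 128 CPM of Slc38a2, against 0 in the lowest control, 38.2 in the median and 117 in the highest. All 4 lay above every control, but the test at T0 missed the threshold, with a log2 fold change of 1.78 (SE 0.54, adjusted p = 0.0502, 2.34% of all genes called). At T1 they had 299.9, 127, 419 and 542 CPM, against 25.8, 80.6 and 168 CPM in the lowest, median and highest control. That was a rise of 2.10 on the log2 scale (SE 0.47, adjusted p = 0.00162), which was 1.82 without replicate 2 of 9.7 nM (adjusted p = 0.0795). At T4 they had 91.9, 102, 24.0 and 81.0 CPM, against a control median of 0 and a highest control of 40.1, and 8 of 12 controls had no count. The rise at T4 was 3.08 (SE 0.70, adjusted p = 0.00166, 2.69% called). Over the 3 times the log2 fold change was 2.32 (SE 0.34, adjusted p = 1.97e-08), and 8.75% of all genes were called in that comparison, among them 2 of the 3 members tested. Both arms were set against the same control libraries.

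Set against each other over the 3 times, the low doses with proline were lower in Slc38a2 than those without, by a log2 difference of -1.27 (SE 0.40, adjusted p = 0.0492, 3.65% called). This comparison was added after the data had been examined, and its call was lost in 18 of the 24 fits that each left out 1 of its libraries (log2 -2.05 to -1.13). It held without either 2.4 nM library without proline at T1 or without replicate 1 of 9.7 nM without proline at T4. With proline at 9.7 nM it held without replicate 2 at T0 or T4 or replicate 1 at T1. At single times the difference between the arms did not pass by edgeR. It was -1.08 at T0 (adjusted p = 0.655, 0.758% called), -1.31 at T1 (adjusted p = 0.482, 0.276% called) and -1.41 at T4 (adjusted p = 0.808, 0.620% called).

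At the middle doses Slc38a2 rose in the proline arm at each time and in the arm without proline at T0. With proline at T0 the libraries had 76.1 and 161 CPM at 39 nM and 189.6 and 161 CPM at 156 nM, a rise of 1.64 (SE 0.55, adjusted p = 0.0415, 9.30% called). With proline at T1 they had 205, 321, 288 and 222 CPM, all above the controls, a rise of 1.71 (SE 0.49, adjusted p = 0.0165, 6.20% called). With proline at T4 the 39 nM libraries had 148 and 192 CPM and both 156 nM libraries had none. The T4 rise of 3.43 (SE 0.72, adjusted p = 0.00026, 8.82% called) therefore rested on 1 dose, and with each dose as its own coefficient it was 1.04 (adjusted p = 0.934). Leaving out 1 library ended the call with proline at T0 for all but replicate 1 of 39 nM (log2 1.46 to 1.84), and at T1 for replicate 1 of 156 nM and replicate 2 of 39 nM (adjusted p of 0.0727 and 0.0817). Without proline at T0 the libraries had 230.1, 195, 260.2 and 231 CPM, all above the controls, a rise of 2.26 (SE 0.54, adjusted p = 0.000582, 22.7% called). Without proline at T1 the 39 nM libraries had 359 and 93.3 CPM and both 156 nM libraries had none, and no member was called (19.7% called). No member was called at T4 either (33.0%), where the libraries had 0, 28.0, 0 and 32.4 CPM. At T0 all 4 libraries with proline were below all 4 without (0.896% of genes called between the arms), and at T1 the arms overlapped (0.0689% called). Over the 3 times the arms had a log2 difference of 0.99 (95% interval 0.05 to 1.93, adjusted p = 0.179, 8.13% called), which did not pass.

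At the high doses Slc38a2 rose with proline at T0 and passed no test against control at T1 or T4 (at T1, 29.2% of genes called with proline and 25.3% without, and no member in either arm). The 6 libraries with proline at T0 had 170.2, 134, 119.98, 171, 80.4 and 223 CPM, a rise of 1.65 (SE 0.52, adjusted p = 0.00824, 33.8% called). Without proline at T0 they had 35.6, 0, 131, 86.8, 240.1 and 220.02 CPM, where 625 nM was at or under the control median and the 10000 nM pair was the highest (log2 fold change 1.26, adjusted p = 0.0990, 28.9% called). Between the arms the log2 difference over the 3 times was -0.22 (95% interval -1.13 to 0.68), and none of the 3 members tested passed (0.482% called). None passed at T0, T1 or T4 alone, where 0.0689, 0 and 0.138% of genes were called by edgeR, and by DESeq2 none did either. At T1 106 genes but no member had an unadjusted p under 0.05.

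**Figure D1:**
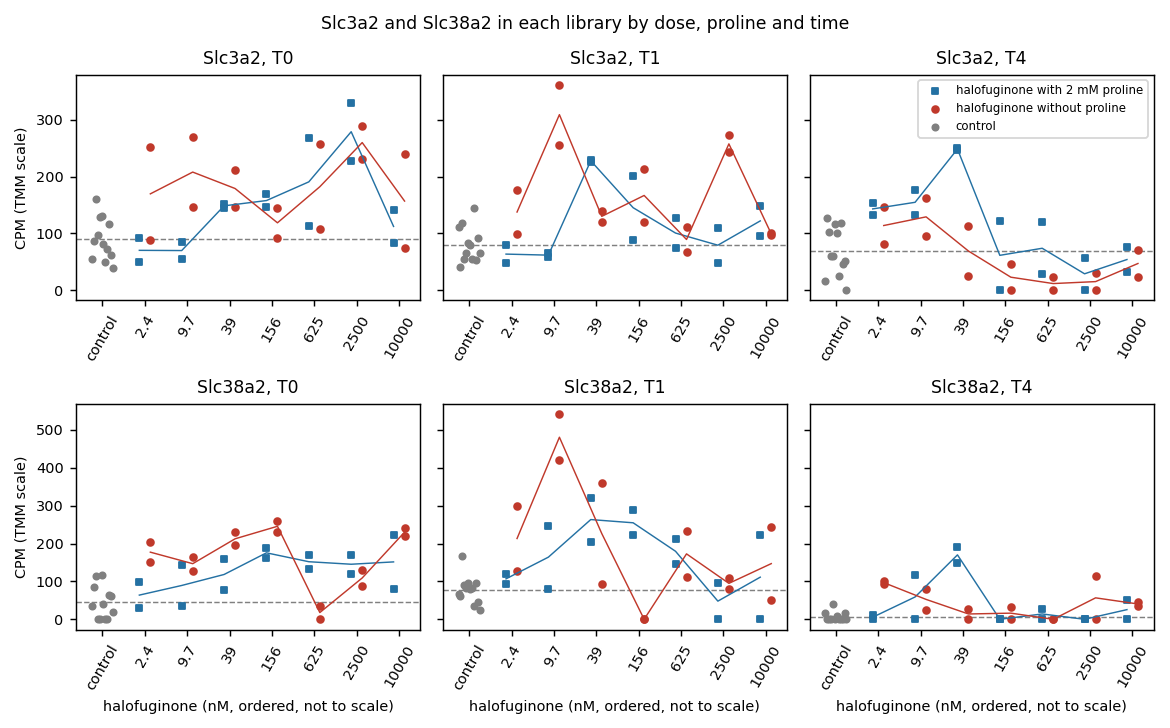
CPM of Slc3a2 (upper row) and Slc38a2 (lower row) in each library at T0, T1 and T4, by halofuginone dose in nM with the controls at the left; blue squares have 2 mM proline, red circles have none, lines join the means of 2 libraries and the dashed line is the control mean. At 9.7 nM and T1, Slc38a2 had 247 and 81.2 CPM with proline and 419 and 542 CPM without it.

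Slc3a2 (chr19:8706882-8723369, minus strand) encodes the CD98 heavy chain, which carries light chains such as those encoded by Slc7a5 and Slc7a11 to the cell surface. It rose at the low doses without proline, and at T4 it was lower at the high doses without proline than in controls. The low doses had 83 counts over the 3 times with proline, 98.4 CPM (78.4 to 122), 122 counts without, 168 CPM (139 to 201), and the controls 207 counts, 78.1 CPM (67.9 to 89.5). From 2.4 to 10000 nM the level was 98.2, 98.6, 208, 131, 125, 129 and 99.0 CPM with proline, and 134, 221, 133, 109, 94.3, 173 and 92.0 CPM without. The ratio of the arms, with proline over without, was 0.731 (0.484 to 1.097) at 2.4 nM, 0.445 (0.290 to 0.675) at 9.7 nM, 1.56 (1.03 to 2.38) at 39 nM and 1.197 (0.683 to 2.14) at 156 nM. The level of 94.3 CPM at 625 nM without proline was 52.6 CPM without replicate 2 at T0.

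At T0 the low-dose libraries had 91.3, 48.6, 85.02 and 54.2 CPM of Slc3a2 with proline, 251, 87.8, 269 and 146 CPM without, and 38.4, 83.6 and 159.9 CPM in the lowest, median and highest control. At T1 they had 47.2, 79.6, 58.1 and 65.0 CPM with proline, 176, 98.5, 256 and 361 CPM without, and 40.8, 72.4 and 144 CPM in the lowest, median and highest control. All 4 libraries with proline at T1 were below every library without, and both 9.7 nM libraries and replicate 1 of 2.4 nM without proline lay above all controls. Without proline the log2 fold change against control was 1.46 (SE 0.39, adjusted p = 0.0170, 2.48% called) at T1 and 1.08 over the 3 times (SE 0.23, adjusted p = 0.000333). At T0 it was 1.03 (SE 0.40, adjusted p = 0.201, 2.34% called), which did not pass. Leaving out replicate 1 or 2 of 9.7 nM at T1 ended the T1 call, with adjusted p of 0.0886 and 0.360. With the replicate block the value over the 3 times was 1.163 with an adjusted p of 0.0860. The log2 difference of the arms was -1.77 at T1 (adjusted p = 0.105, 0.276% called) and -0.94 over the 3 times (SE 0.30, adjusted p = 0.0499). That last call, added after the data had been examined, was lost in 21 of 24 fits that left out 1 library (log2 -1.03 to -0.83). It held only without 1 of 3 libraries at 2.4 nM without proline, replicate 2 at T0 or T1 or replicate 1 at T4.

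At T4 the low-dose arms overlapped. The libraries with proline had 153, 133, 132 and 177 CPM of Slc3a2, those without had 80.5, 147, 95.9 and 162 CPM, and the controls had 0, 59.7 and 128 CPM as lowest, median and highest. All 4 libraries with proline lay above every control, in a comparison where no gene of 1451 was called (0%). The log2 fold change against control was 1.06 with proline (p = 0.00631, adjusted p = 0.654). Without proline it was 0.76 (SE 0.42, adjusted p = 0.551, 2.69% called), which did not pass. The difference between the arms was 0.31 (adjusted p = 0.959, 0.620% called).

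At the middle doses with proline Slc3a2 rose at T1 and T4. At T1 the libraries had 226, 229.6, 88.6 and 202 CPM with proline and 119.8, 139.9, 120.3 and 213 CPM without, and the rise with proline was 1.24 (SE 0.41, adjusted p = 0.0444). At T4 they had 247, 249, 122 and 0 CPM with proline, the first pair at 39 nM, and 25.4, 112, 45.4 and 0 CPM without. The T4 rise with proline was 1.248 (SE 0.42, adjusted p = 0.0427). With each dose as its own coefficient it was 0.715 by edgeR (adjusted p = 0.417). The log2 difference of the arms at T4 was 1.80 (SE 0.67, p = 0.00764, adjusted p = 0.0846, 6.20% called), which did not pass. Leaving out 1 library ended each of these rises unless it was replicate 1 of 156 nM at T1 or replicate 2 of 156 nM at T4, with adjusted p up to 0.161 at T1 and 0.291 at T4.

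At the high doses Slc3a2 rose at T0, by 1.06 with proline (SE 0.37, adjusted p = 0.0185) and by 1.159 without (SE 0.38, adjusted p = 0.0135). With proline the T0 libraries had 113, 268, 329.9, 228, 141 and 83.5 CPM, those without had 107, 257, 230.04, 289, 240.1 and 73.3 CPM, and the controls ran from 38.4 to 159.9 CPM with a median of 83.6. At T4 it fell without proline, by 1.45 on the log2 scale (SE 0.60, adjusted p = 0.0375), where 45.3% of all genes were called. The T4 libraries had 28.2, 119, 57.4, 0, 76.5 and 31.1 CPM with proline (log2 -0.58, adjusted p = 0.370, 45.9% called) and 0, 23.0, 29.9, 0, 22.7 and 71.0 CPM without. The change from control without proline was lower at T4 than at T0 by a log2 of -2.61 (SE 0.70, adjusted p = 0.00387, 14.7% called), and with proline by -1.64 (SE 0.64, adjusted p = 0.0750, 12.9% called). No member passed the test of the effect at T1 less that at T0 (4.34% called with proline, 4.620% without). At T0 the call with proline was lost without either 2500 nM library or replicate 2 of 625 nM (adjusted p up to 0.144). The T0 call without proline was lost without the same ones of its own arm or replicate 1 of 10000 nM (up to 0.0960). By edgeR both T0 calls were also lost with no filter, a minimum count of 2, median-of-ratios scaling and the replicate block. The adjusted p there ran from 0.0691 to 0.212 with proline and from 0.0586 to 0.282 without. With DESeq2 the T0 call with proline was lost too (0.0604). At T4 the call was lost without replicate 1 of 625 nM (adjusted p = 0.0607) and with DESeq2 (0.0614). By edgeR it was also lost with no filter (adjusted p = 0.108) and with a minimum count of 2 (0.0556). The same held for separate fits by time (0.135), leaving out structural RNAs (0.054) and the replicate block (0.117). Across the treated libraries at T4 the level fell with dose, by a log2 of -0.49 per 10-fold dose with proline (SE 0.20, adjusted p = 0.0440, 39.4% called) and of -0.62 without (SE 0.23, adjusted p = 0.0333, 30.5% called). No member had a called slope with proline at T0 (25.2% called) or T1 (18.6%), or without at T0 (15.2%) or T1 (12.1%).

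**Figure D2:**
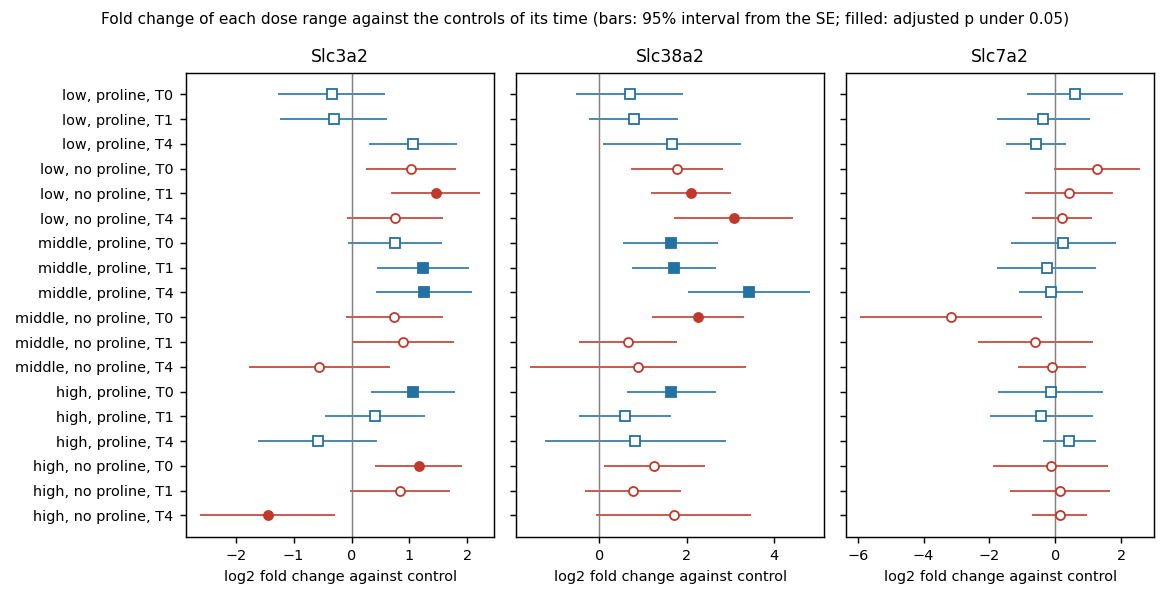
Log2 fold change against the controls of the same time for Slc3a2, Slc38a2 and Slc7a2 in each dose range, arm and time; bars are 95% intervals from the SE and filled symbols have an adjusted p under 0.05. Filled symbols of Slc38a2 include the low doses without proline at T1 (2.10) and T4 (3.08) and the middle doses with proline at T4 (3.43), and Slc7a2 has none.

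The light chains and Slc1a5 had few counts. Slc7a5 (chr8:121881150-121907694, minus strand), the large neutral amino acid exchanger LAT1, had 1 count over the 3 times at the low doses with proline, 4 at those without (5.5 CPM) and 1 in 36 controls (0.377 CPM). The ratio without proline to control was 14.6 with an interval of 1.44 to 718, since it rests on single counts, and 1 library held 2 of the 4 counts at the low doses without proline (3.09 CPM without it). Slc7a11 (chr3:49892526-50443614, minus strand) encodes xCT, which takes up cystine in exchange for glutamate. It had 7 counts at the high doses with proline (11.1 CPM), 16 without (29.4 CPM, 16.8 to 47.8) and 22 in controls (8.3 CPM). Replicate 1 of 625 nM without proline at T4 held 7 of those 16 counts, and without it the level was 17.6 CPM. In controls it was listed with 9 counts at T1 (11.0 CPM) and 13 at T4 (12.1 CPM), against no count at T0, where the floor is 3.96 CPM. It was thus at least 2.78-fold higher at T1 and at least 3.05-fold higher at T4 than at T0. These bounds take the T1 and T4 levels without their counting error. In the fit with the lower minimum count the adjusted p was 0.0291 at T1 (3.58% called) and 0.00296 at T4 (24.5% called). Control replicate 7 at T4 held 7 of the 13 counts, and without it the T4 level was 6.34 CPM, at least 1.60-fold higher than at T0, with an adjusted p of 0.0344. Slc1a5 (chr7:16781340-16798274, plus strand), the glutamine exchanger ASCT2, had 8 counts (12.6 CPM) with proline and 11 (20.2 CPM) without at the high doses, 6 (7.1 CPM) and 11 (15.1 CPM) at the low doses, and 20 (7.5 CPM) in controls. Replicate 1 of 10000 nM without proline at T4 held 5 of the 11 high-dose counts (12.0 CPM without it), and replicate 2 of 2.4 nM with proline at T0 held 3 of the 6 low-dose counts (3.84 CPM without it). In the fit with the lower minimum count the dose slopes of Slc7a11 and Slc1a5 did not pass at any time in either arm. The nearest was that of Slc1a5 at T4 without proline, a log2 of 1.06 per 10-fold dose (SE 0.38, p = 0.00588, adjusted p = 0.0538), and that of Slc7a11 there was 0.80 (SE 0.42, adjusted p = 0.226).

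Slc7a2 (chr8:40862396-40922308, plus strand) encodes the cationic amino acid transporter CAT2, which supplies arginine to activated macrophages. It rose with time in controls and no dose range changed it in a test. T4 controls had 40.1, 161 and 383 CPM as lowest, median and highest, against 0, 16.4 and 53.8 CPM at T0, and 11 of the 12 T4 controls lay above all T0 controls. Summed, they had 175 counts and 163 CPM (139 to 189), against 14 counts and 18.5 CPM (10.1 to 31.0). The log2 fold change was 3.00 (SE 0.43, adjusted p = 3.79e-10) in a comparison that called 60.8% of all genes. The other members tested there were Slc38a2, which fell by 2.31 (SE 0.58, adjusted p = 0.000313), and Slc3a2 (log2 -0.35, adjusted p = 0.316). At T1 no member was called against T0 controls (14.3% called). At T4 the dosed groups had 105 CPM with proline and 173 CPM without at the low doses, 159 and 149 CPM at the middle doses, and 229 and 173 CPM at the high doses, against 163 CPM in controls. Without replicate 2 of 156 nM the middle doses without proline had 82.4 CPM. At T0 the middle doses without proline had no count, a floor of 16.0 CPM that is at least 1.15-fold lower than in controls (adjusted p = 0.0962). That bound takes the control level without its counting error. Without replicate 2 of 39 nM that floor was 1.29 times the control level, so the bound did not hold. Exons of Slc7a2 overlap the antisense gene Gm26584, and the strand setting of the counting is not given, so reads of the pair cannot be told apart.

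**Figure D3:**
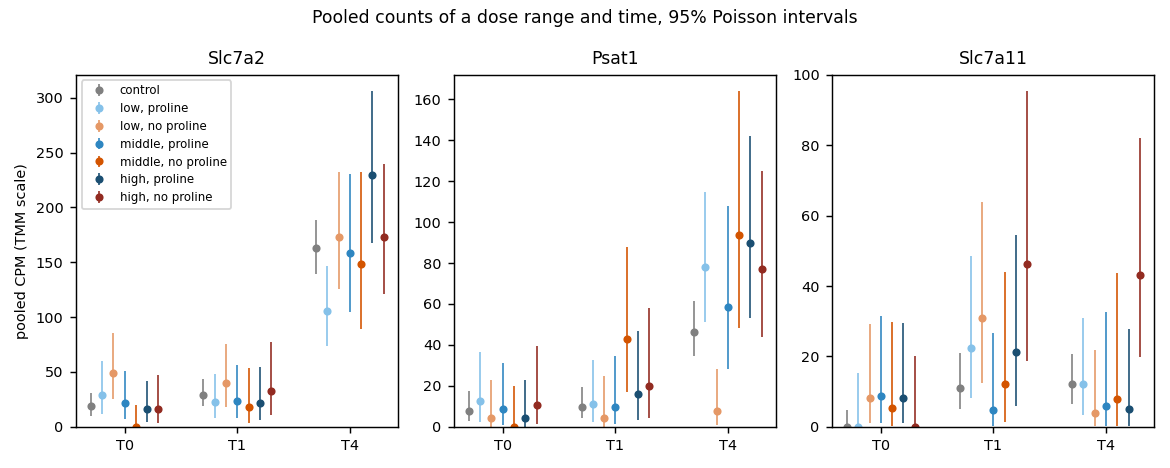
Summed CPM of Slc7a2, Psat1 and Slc7a11 at T0, T1 and T4, with 95% Poisson intervals, for controls (grey) and each dose range with proline (blue shades) or without (orange to dark red). T4 controls had 163 CPM of Slc7a2 against 18.5 at T0, and at T4 Psat1 had 78.1 CPM at low doses with proline and 7.87 without.

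Asns (chr6:7675169-7693254, minus strand) encodes asparagine synthetase, which makes asparagine from aspartate and glutamine. It rose at the low doses without proline. Over the 3 times it had 18 counts in 8 of 12 libraries with proline, 21.3 CPM (12.6 to 33.7), 45 counts in 11 of 12 libraries without, 61.9 CPM (45.2 to 82.9), and 42 counts in 20 of 36 controls, 15.9 CPM (11.4 to 21.4). With proline the libraries had 30.4, 16.2, 0 and 36.2 CPM at T0, 31.5, 0, 0 and 0 CPM at T1, and 10.9, 33.3, 60.1 and 29.5 CPM at T4. Without proline they had 94.2, 37.6, 82.8 and 36.6 CPM at T0, 52.9, 28.2, 46.6 and 54.2 CPM at T1, and 91.9, 113, 47.9 and 0 CPM at T4. The control medians were 14.6, 15.3 and 0 CPM. At T0 all 4 libraries with proline were below all 4 without. The nearest libraries of the arms, both replicate 2 of 9.7 nM, had 2 counts each, so library scaling alone set them apart. Asns was not in the fit of 1451 genes, which called 0.758% of them between these arms.

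In the fit with the lower minimum count Asns rose at the low doses without proline by 1.70 over the 3 times (SE 0.43, adjusted p = 0.00861), together with Slc38a2 and Slc3a2, 3 of 8 members where 1.32% of all genes were called. The call of Asns held in 11 of the 12 fits that left out 1 library and was lost without replicate 2 of 2.4 nM at T4 (1.49, adjusted p = 0.0630). With proline the log2 fold change against control was 0.14 (SE 0.66, adjusted p = 1.00, 0.113% called), and the difference between the arms was -1.57 (SE 0.56, adjusted p = 0.265, 0.353% called). The ratio of summed levels at the low doses was 0.345 (0.188 to 0.607), with proline over without. At 39 nM it was 4.67 (1.59 to 18.6), from 23 counts with proline (67.3 CPM) and 4 without (14.4 CPM), and 7.73 without replicate 1 of 39 nM without proline at T0. Its dose slope at T1 without proline was -1.57 (SE 0.51, adjusted p = 0.0534) in the fit with the lower minimum count, which did not pass. At 2.4 nM there were 9 counts with proline (20.1 CPM) and 32 without (71.6 CPM). At T1 the high doses without proline had no count, where the floor is 19.8 CPM, against 22.1 CPM in controls. That is at least 1.11-fold lower, a bound that takes the control level without its counting error. Without replicate 2 of 10000 nM the floor was 1.22 times the control level, so the bound did not hold.

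Psat1 and Phgdh encode enzymes of serine synthesis, and Shmt2 the mitochondrial enzyme that makes glycine from serine. Psat1 (chr19:15904678-15947337, minus strand) was low at the low doses without proline at T4, where the other dosed groups had counts in most libraries. The 4 low-dose libraries at T4 had 43.7, 77.6, 96.2 and 103 CPM with proline and 0, 0, 0 and 54.0 CPM without, against 0, 42.0 and 113 CPM in the lowest, median and highest control. Summed, that was 26 counts with proline, 78.1 CPM (51.0 to 114), 2 counts without, 7.87 CPM (0.953 to 28.4), and 50 counts in controls, 46.5 CPM (34.5 to 61.3). The ratio to control was 1.68 (1.00 to 2.75) with proline and 0.169 (0.0199 to 0.644) without, where both counts were in replicate 2 of 9.7 nM. Set against each other the arms had a log2 difference of 3.00 (SE 1.04, p = 0.00381, adjusted p = 0.752, 0.0504% called) in the fit with the lower minimum count, which did not pass. In controls Psat1 rose at T4 against T0 by 2.50 in that fit (SE 0.60, adjusted p = 0.000352), where 4 of 8 members and 24.5% of all genes were called. The ratio of summed levels was 5.87 (2.51 to 16.7), and 15.9 without control replicate 7 at T0, which held 4 of the 6 counts there.

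Phgdh (chr3:98313170-98339990, minus strand) had 3 counts over the 3 times at the low doses with proline (3.6 CPM), 7 without (9.6 CPM) and 9 in controls (3.4 CPM). The ratio without proline to control was 2.84, with an interval of 0.897 to 8.56 that includes 1. At the middle doses it had 6 counts with proline (9.8 CPM) and none without, which allows up to 6.3 CPM. Shmt2 (chr10:127517123-127522444, minus strand) had 6 counts in each low-dose arm (7.1 CPM with proline, 8.3 CPM without, or 4.64 CPM without replicate 2 of 2.4 nM at T0) and 9 in controls (3.4 CPM). Phgdh was in neither fit, so a difference in it was not tested. Shmt2 was tested only at the lower minimum count, and it was not called at the low doses over the 3 times.

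**Figure D4:**
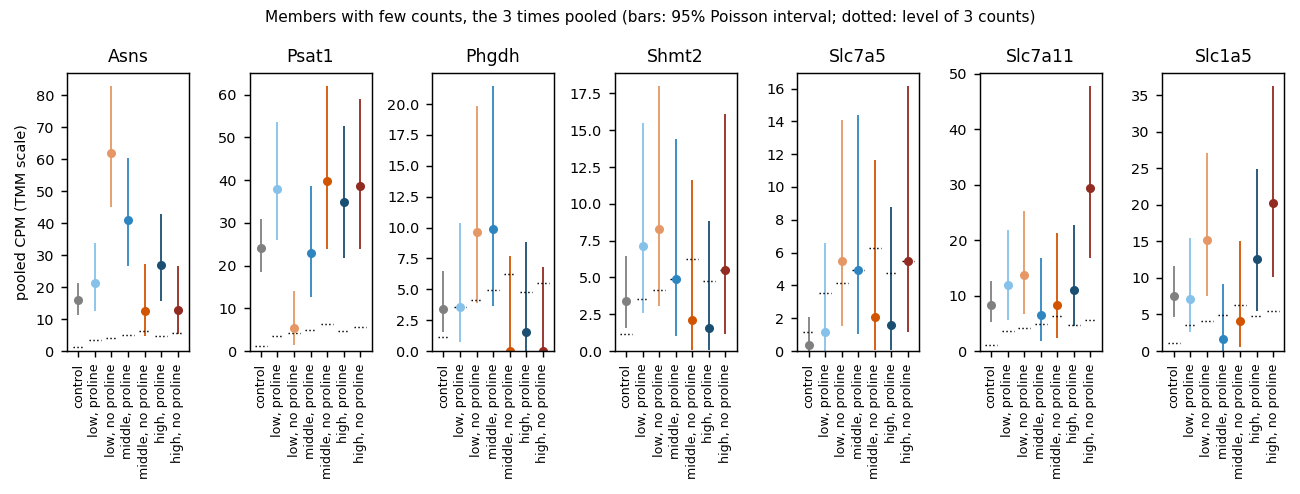
Summed CPM over T0, T1 and T4 of the 7 members with few counts, for controls and each dose range with or without proline; bars are 95% Poisson intervals and dotted marks the level of 3 counts in a group. Asns had 21.3 CPM at low doses with proline and 61.9 without, against 15.9 in controls, and Psat1 had 37.9 and 5.5 CPM in the same arms, against 24.2.

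Other genes of the pathway were read from lists of amino acid transporters, synthesis enzymes, stress regulators and tRNA synthetases. At the low doses without proline over the 3 times, 1 of 5 tested transporters, 0 of 2 enzymes, 5 of 9 regulators and 2 of 4 synthetases rose and none fell, where 8.75% of all genes were called. The transporter was Slc38a1, a glutamine carrier of the same family as Slc38a2 (log2 1.04, SE 0.28, adjusted p = 0.00833). The regulators included Ddit3, the stress factor CHOP (2.37, adjusted p = 3.30e-08), Atf4 (1.49, adjusted p = 2.91e-06), Fnip1 (1.09) and Atf3 (1.01), and the synthetases were Aars (1.54) and Eprs (1.00, SE 0.26, adjusted p = 0.00537), whose protein binds halofuginone. The median log2 fold change was 0.89 over the regulators and -0.04 over all genes tested. With proline none of these lists had a called gene, and Atf4 was at 0.20 and Ddit3 at -0.30. Set against the arm without proline, the low doses with proline were lower for Ddit3 (-2.67, adjusted p = 3.20e-05), Atf4 (-1.29), Fnip1 (-1.14), Atf3 (-0.91) and Aars (-2.43). The fit with the lower minimum count added 2 of 20 transporters, Slc7a1, the cationic transporter CAT1 (2.47, adjusted p = 7.27e-05), and again Slc38a1 (0.99). It also called 1 of 18 enzymes, the mitochondrial folate enzyme Mthfd2 (2.78, adjusted p = 9.65e-09), 7 of 25 regulators and 4 of 19 synthetases, Mars (2.08) and Cars (1.71) among them, where 1.32% of all genes were called.

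At the high doses without proline at T0, 3 of 5 transporters rose (Slc38a1 1.27, Slc16a10 1.19 and Slc15a3 1.06) and Slc6a6, the taurine transporter, fell by 1.17, where 28.9% of all genes were called. Odc1, which makes putrescine from ornithine, rose by 3.87 (adjusted p = 7.57e-09). Of the regulators 7 of 9 rose, with Atf3 at 3.37, Ddit3 at 2.82, Atf4 at 2.21 and Cebpb at 2.17. With proline at T0 the counts were 2 higher and 1 lower of 5 transporters and again 7 of 9 regulators, where 33.8% of all genes were called. Without proline Atf3, Atf4 and Ddit3 were also called at T1 (2.25, 1.87 and 2.57, 25.3% called). At T4 none of them was (0.58, -0.42 and -1.12, 45.3% called). The T4 less T0 differences of their changes from control were -2.79, -2.63 and -3.94. By edgeR all of these were called (adjusted p of 3.83e-06, 0.00286 and 0.0129, 14.7% called).

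Library make-up differed between the same groups. The share of Rn45s averaged 43.9, 42.7 and 34.6% at T0, T1 and T4 at the low doses with proline, 42.1, 37.0 and 38.1% without, and 47.7, 43.6 and 38.0% in controls, while it was 62.3 to 64.6% at the high doses without proline. At the middle doses it averaged 52.9, 50.4 and 53.1% with proline and 57.5, 60.03 and 65.7% without. At T4 with proline it was 43.5 and 37.1% in the 39 nM libraries, which had the counts of Slc38a2, and 66.7 and 64.96% in the 156 nM libraries, which had none. Of 17 macrophage markers 16 were in the table and none of those was at 0. Their summed level averaged 5061 CPM at the low doses with proline (4282 to 5726), 4409 CPM without (3025 to 5555), 3123 CPM at the high doses without proline (1716 to 4510) and 5225 CPM in controls (3867 to 6752). Neutrophil markers summed to 281 CPM at the low doses with proline, 208 CPM without, 107 CPM at the high doses without proline and 317 CPM in controls (131 to 452), with Elane at 0. Of the other marker lists, 4 of 5 B cell, 6 of 8 T and NK cell, 3 of 6 dendritic, 7 of 8 erythroid, 5 of 6 mast cell and 3 of 6 fibroblast genes were at 0 in all libraries. The part of these measures in the results was not tested.

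Across the 45 groups, the patterns most like that of Slc38a2 were those of Gsk3b and Igf1 (r = 0.73 each) and Arl4c (0.72), with r the Pearson correlation of log2 summed CPM. For Slc3a2 they were Sat1 (0.82), Atp6v0c and H3f3b (0.79 each), and for Slc7a2 Cxcl9 (0.87), Ifit2 (0.86) and Slfn4 (0.85). Slc38a2 had an r of 0.57 with Slc3a2 and -0.56 with Slc7a2. These points share libraries, depth and the Rn45s share, and are given as a description.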

How the data were processed

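The deposited table gives raw counts per gene symbol, which the authors made from 3′ reads of a modified SCRB-Seq and Nextera protocol, per the labels. BWA and mm10 are named in the submitters' processing notes. Not given in the sources used here are versions, the counting program, annotation, strand setting and use of molecular identifiers. Without identifiers, PCR copies can count as molecules, and TMM scaling of libraries that are mainly Rn45s rests on few other counts.

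Counts of all 120 libraries were tested in 1 fit of 21 groups (time by control or dose range and arm) with edgeR 4.0.16 in R 4.3.3, by the two-sided quasi-likelihood test, scaled by TMM and filtered with filterByExpr at a minimum of 10 counts. P-values were Benjamini-Hochberg adjusted over 1451 genes within each of 38 comparisons, with a threshold of 0.05, 10 of them, of low doses, having been added once the counts had been seen. Each SE was computed as |log2 fold change| over the root of F, so it is not a fitted SE and may be understated for groups with few counts. Dose slopes used the 84 treated libraries and 1169 genes. A second fit used a minimum count of 2. Levels are CPM on the TMM scale. For patterns, 10 CPM were added before taking logs. Ratios of summed counts have exact conditional intervals. Leaving single libraries out of summed levels, and of the control comparisons at a minimum count of 2, was added after the data had been examined. Positions are those of GENCODE M21 on GRCm38. Of 240 pairs of replicates, 0 were identical or within sampling noise, with a chi-square per degree of freedom of at least 1.58. The script was tested on simulated data.

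The members and lists were chosen with earlier results of these data known. Named beside all 10 members are each list's called genes, 4 at most, ranked by adjusted p in a comparison family, some context genes and the 3 genes most alike in pattern. The alternatives tried were scaling by median of ratios, no filter, a minimum count of 2, DESeq2 1.42.0, each dose as its own coefficient, separate fits by time, leaving out structural RNAs, libraries under 30000 counts, the 10000 nM dose or each treated library, and replicate number as a block. No label says that a replicate number marks a shared culture, so the main fit has no block. The log2 difference of replicate 1 less replicate 2 was also correlated over genes between the arms of a dose and time. That r ran from -0.076 to 0.075 over 21 pairs of arms. Counting noise in sparse libraries lowers such an r, so it cannot decide whether cultures were shared.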

Additional observations from a re-analysis of the deposited data

Results flagged for a closer look

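In 3 of 54 sets of 4 to 10 libraries looked at, 1 library stood apart from the rest by Dixon's criterion, which chance meets in about 1 of 20 sets. The highest library of Slc38a2 at T4, low doses with proline, had 118 CPM, where the others had 10.9, 0 and 0. The highest library of Slc7a2 at T0, high doses with proline, had 59.99 CPM, against 20.1 or less in the others. The highest library of Slc7a2 at T4, middle doses without proline, had 357 CPM, where the others had 102, 90.9 and 56.1.

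Further, 3 effects differed between groups by a test of the difference itself. The change of Slc3a2 at high doses without proline against control was lower at T4 than at T0, with a log2 difference of -2.61 (edgeR, adjusted p = 0.00387), and between -3.14 and -2.42 when 1 library was left out. Low doses with proline were lower than without over the 3 times for Slc3a2 (-0.94, adjusted p = 0.0499) and Slc38a2 (-1.27, adjusted p = 0.0492), both close to the threshold.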

How the results depend on the processing

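No called value changed sign under the alternatives run. Separate fits by time cannot hold a comparison over the 3 times. The rise of Slc38a2 at low doses without proline over the 3 times passed under each of the others. With 1 library left out it was between 2.21 and 2.41 (largest adjusted p 1.01e-06). That of Slc3a2 passed between 0.95 and 1.165 (0.00633) and lost its call with the block only, except that 5 of 12 leave-outs ended it at a minimum count of 2. Counts of members called differed as follows; where no cause is named the cause was not tested. With no filter and with a minimum count of 2, 1 was called for T1 and 4 for T4 controls. High doses had 0 at T0 and T4 and for the T4 less T0 difference, and 1 with proline at T0. Middle doses with proline had 0, 0 and 1 at T0, T1 and T4. Low doses had 1 at T1 and 0 between their arms over the times. In these fits more genes are adjusted for and more members tested, and estimates moved too. For Slc3a2 at high doses without proline at T0 the log2 fold change was 1.159 in the main fit and 0.793 at a minimum count of 2. The part of each was not tested. Median-of-ratios scaling gave 0 for high doses at T0, 1 with proline, 0 and 1 for middle doses with proline at T0 and T1, 1 for low doses at T0 and 1 between their arms. DESeq2 gave 1 for high doses with proline at T0, 0 for middle doses with proline at T0, 1 for low doses at T0 and 1 between their arms at T1. Separate coefficients per dose gave 0 for middle doses with proline at T4 and 1 for low doses at T0. Separate fits by time gave 0 for T4 controls, low doses at T4, middle doses at T0 in both arms and middle doses with proline at T4, since Slc38a2, and in the first Slc7a2, no longer passed the filter, while in the last of these Slc3a2 was tested and lost its call (1.29, adjusted p = 0.0835), 0 for high doses at T4, 1 with proline at T0 and 1 between low-dose arms at T1. Without structural RNAs 0 were called for high doses at T4, 0, 1 and 1 for middle doses with proline at T0, T1 and T4, and 0 between low-dose arms. Without libraries under 30000 counts the last of these were 0, 1, 1 and 0, and it was 1 for the T4 less T0 difference with proline, which was also 1 without 10000 nM. Without that dose the slope with proline had 1 at T0 and 0 at T4, and middle doses with proline had 0 at T0 and 1 at T4.

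The replicate block gave 0 for high doses in either arm at T0 and at T4 without proline. For middle doses with proline it gave 0, 0 and 1 at T0, T1 and T4. Low doses had 0 at T1, 1 over the 3 times and 0 between their arms. No correlation between arms of the difference of replicates was above 0.1. With 1 library left out the count ran from 0 to 2 for low doses at T1, between low-dose arms over the times and between middle-dose arms at T4, from 0 to 1 for high doses at T0 and T4, middle doses with proline at T0 and T1, low-dose arms at T1, middle-dose arms over the times and the T4 less T0 difference with proline, and from 1 to 2 for high doses with proline at T0 and middle doses with proline at T4. Median-of-ratios scaling moved all genes by -0.31 to 0.35 on the log2 scale. Slopes were run with fewer alternatives. Depth kept 7 of 10 members out of the tests at a minimum count of 10 and 2, Slc7a5 and Phgdh, out of those at 2.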
